A study of Homo sapiens with 25 samples.

Results

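The AsiSI sites described here lay more than 2000 bp from every protein-coding gene body of the human genome, whether or not a noncoding gene was annotated there. The recognition sequence GCGATCGC occurred 1211 times on chromosomes 1 to 22 and X of GRCh37, and 400 of these sites met this rule against the gene records of GENCODE release 44. BLISS listed 35 of the 400 sites (8.75%, 95% Wilson interval 6.36 to 11.9%). Over all 1211 sites the listed share was 17.7%. The remaining sites were 251 at promoters, that is, within 2000 bp of a protein-coding transcription start site (TSS), and 560 in gene bodies beyond promoters. The gene body class takes in sites up to 2000 bp from a gene body, and 543 of its sites lay inside one.

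The list was made from DIvA cells, a derivative of the human osteosarcoma line U2OS that carries AsiSI-ER, a hormone-controlled form of the restriction enzyme AsiSI. The drug 4-hydroxytamoxifen (4OHT) brings the enzyme to chromatin. The induced condition received 300 nM 4OHT during 4 h, and the other was left uninduced, with 1 BLISS library from each and AsiSI-ER present in both. BLISS ligates a sequencing linker to DNA ends in fixed cells, so that reads start at double-strand breaks (DSBs). The data analysed here are positions only: a site is called listed if its first base is in the list and unlisted otherwise, and the read count behind each site and the depth of the libraries are unknown. A site that was not cut, a site cut less often than the list required and a site whose reads could not be placed cannot be told apart, and no value carries a spread between experiments. Listed sites in turn rest on a comparison of 1 library with 1 other. Background calls among them cannot be told apart from cut sites either.

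AsiSI recognises a palindrome that holds CpG dinucleotides at both ends, and methylation of these CpGs blocks cleavage. In human cells most CpGs away from promoters are methylated and have been depleted by deamination, whereas CpG islands, which often mark the 5′ ends of genes, have kept them. Long noncoding RNA (lncRNA) genes and transcribed pseudogenes have 5′ ends of their own outside protein-coding genes. Alu elements, the most abundant short interspersed repeats of primates, are also rich in CpG and usually methylated.

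The sequences that bear on the comparisons are shown first, with 50 bases on each side of the recognition sequence, on the forward strand of GRCh37 from 5′ to 3′. Capitals mark the recognition sequence and every CpG around it. The first 3 are listed sites at 5′ ends of lncRNA genes, the next 2 are listed sites far from any protein-coding gene, and the last is the unlisted site with the highest CpG ratio.
LINC01970, listed, chr17:80250790-80250897: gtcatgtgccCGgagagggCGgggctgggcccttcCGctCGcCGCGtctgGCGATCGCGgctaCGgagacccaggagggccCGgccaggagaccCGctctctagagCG
LINC01551, listed, chr14:29254557-29254664: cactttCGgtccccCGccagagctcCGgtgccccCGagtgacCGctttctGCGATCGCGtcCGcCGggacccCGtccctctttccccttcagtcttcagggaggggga
LINC01012, listed, chr6:27661850-27661957: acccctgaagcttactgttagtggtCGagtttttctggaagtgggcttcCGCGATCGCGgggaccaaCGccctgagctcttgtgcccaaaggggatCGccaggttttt
nearest gene DAOA, listed, chr13:105238501-105238608: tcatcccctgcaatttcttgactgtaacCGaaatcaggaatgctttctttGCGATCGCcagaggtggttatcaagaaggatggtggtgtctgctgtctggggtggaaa
nearest gene B3GAT1, listed, chr11:134896057-134896164: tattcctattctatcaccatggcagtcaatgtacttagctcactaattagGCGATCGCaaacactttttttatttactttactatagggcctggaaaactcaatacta
LINC01003, unlisted, chr7:152161958-152162065: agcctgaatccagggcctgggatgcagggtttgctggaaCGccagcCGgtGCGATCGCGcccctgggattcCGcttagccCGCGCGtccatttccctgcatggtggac

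The windows differed in CpG content although all hold the same 8 bases. Counting the 2 CpGs of the recognition sequence, the window at LINC01970 held 13 CpGs, that at LINC01551 held 11 and that at LINC01012 held 7. The listed window nearest to DAOA held 3, and the listed window nearest to B3GAT1 held no CpG other than the 2 of the recognition sequence. The unlisted window in LINC01003 held 9. The count did not divide the listed sites by place: the window of the listed site farthest from a protein-coding gene, near EYS, held 7 CpGs, whereas those of the listed sites near the 5′ ends of LINC01204 and PMS2P11 held 2 and 3. The window near EYS was aligned with an Alu-like repeat, described further on (identity 71.7%).

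The share of listed sites outside genes was compared with both other classes first. It did not differ detectably from that in gene bodies, where 51 of 560 sites were listed (9.11%, 6.99 to 11.8%). The difference was -0.357 percentage points, with a 95% interval of -3.94 to 3.46 (odds ratio 0.957, adjusted p = 0.909 by a two-sided Fisher's exact test). With no minimum distance, every site outside a gene body counted as outside. The direction then turned (65 of 475 against 50 of 543 sites, odds ratio 1.56, Fisher's exact test, adjusted p = 0.0432). At promoters 128 of 251 sites were listed (51%, 44.8 to 57.1%), and sites outside genes were listed less often by 42.2 percentage points (odds ratio 0.0921, 95% interval 0.0585 to 0.144, Fisher's exact test, adjusted p = 6.61e-33). P-values were adjusted by the Benjamini-Hochberg method over the 6 main comparisons. Sites that share a library are not replicates of the experiment, so that these tests and intervals cover counting error over sites only.

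**Figure D1:**
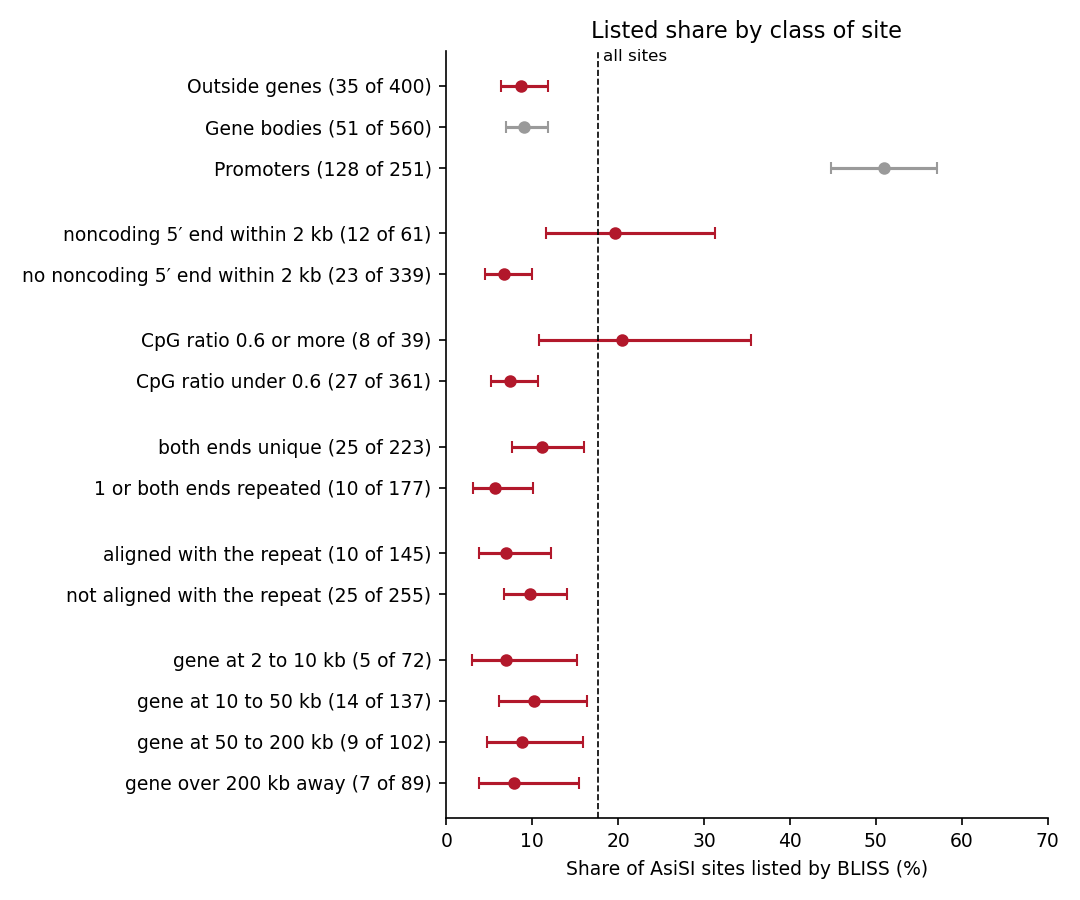
Share of AsiSI sites listed by BLISS (%, points) with 95% Wilson intervals (bars), for sites outside protein-coding genes and for gene bodies and promoters (grey), and for subsets of the sites outside genes. The dashed line is the share over all 1211 sites (17.7%); promoters stood at 51%, and among the subsets plotted for sites outside genes only those with a noncoding 5′ end within 2 kb (19.7%) and with a CpG ratio of 0.6 or more (20.5%) had a share above the line.

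CpG content around the site was then measured as the ratio of observed to expected CpG in 500 bp on each side, leaving out the recognition sequence itself. Sites outside genes were mostly CpG-poor, listed or not: the median ratio was 0.287 in the 35 listed sites (quartiles 0.228 and 0.56) and 0.294 in the 365 unlisted sites (quartiles 0.189 and 0.416). In gene bodies the medians were 0.536 for listed and 0.305 for unlisted sites, and at promoters 0.783 and 0.697. The medians of listed and unlisted sites outside genes thus lay close together, while the upper quartile of listed sites was higher.

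At a ratio of 0.6 or more, a limit often used for CpG islands, 8 of 39 sites outside genes were listed (20.5%), against 27 of 361 below it (7.48%). This was a difference of 13 percentage points (95% interval 2.79 to 28.2, odds ratio 3.19, Fisher's exact test, adjusted p = 0.0259). The call was lost with windows of 100 bp (odds ratio 1.1) and 250 bp (2.22) on each side, by Fisher's exact test with adjusted p = 0.909 and 0.158, and with limits of 0.5 (2.25) and 0.75 (2.4), with adjusted p = 0.0788 and 0.373. It was also lost, with the measure unchanged, among sites with unique sequence on both sides of the cut (odds ratio 2.82, Fisher's exact test, adjusted p = 0.0868).

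**Figure D2:**
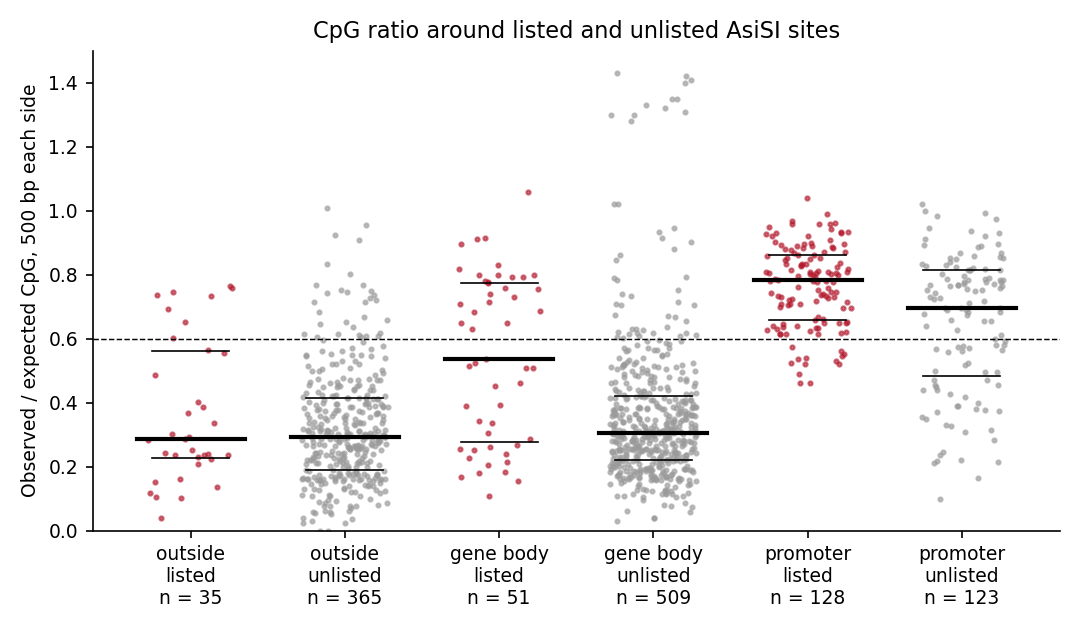
Observed over expected CpG in 500 bp on each side of each AsiSI site (y axis, a ratio without unit), by region and listing; each point is 1 site, thick lines are medians, thin lines are quartiles, and the dashed line is the limit of 0.6. Listed and unlisted sites outside genes had medians of 0.287 and 0.294, whereas listed promoter sites had a median of 0.783.

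Sites were also split into ranges (strata) of CpG ratio. The listed share was lower outside genes than at promoters from 0.3 to under 0.6 and at 0.6 or more, but not under 0.3. Ratios were not matched within a stratum, and listed promoter sites had a lowest ratio of 0.46 and a median of 0.783. Whether CpG content accounts for the difference was not tested. At a ratio of 0.6 or more, 115 of 191 promoter sites were listed (60.2%), which is 39.7 percentage points above the 8 of 39 outside genes (95% interval of outside minus promoter -51.5 to -23.1, Fisher's exact test, p = 3.70e-05 adjusted over 6 tests in strata). From 0.3 to under 0.6 the shares were 5.1% outside genes (8 of 157) and 25.5% at promoters (13 of 51, Fisher's exact test, adjusted p = 0.000386). Under 0.3, 19 of 204 sites outside genes were listed (9.31%), against 0 of 9 at promoters (Wilson upper bound 29.9%), a difference of 9.31 percentage points with a 95% interval of -20.8 to 14.1 (Fisher's exact test, adjusted p = 1). Against gene bodies the strata differed in direction, and none gave an adjusted p under 0.05. Under 0.3 the share in gene bodies was 5.36% (14 of 261), or 3.95 percentage points below that outside genes (Fisher's exact test, adjusted p = 0.21). From 0.3 to under 0.6 it was 5.33% (12 of 225, adjusted p = 1 by Fisher's exact test). At 0.6 or more it was 33.8% (25 of 74), and the difference of outside minus gene body was -13.3 percentage points (95% interval -28.2 to 4.63, Fisher's exact test, adjusted p = 0.288). Neighbouring sites less than 10 kb apart counted separately in all strata. Keeping 1 site per such group left 544 of the 560 gene body sites over all ratios, but no stratum was rerun in this way.

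Sites near the 5′ ends of noncoding genes were listed more often than the other sites outside protein-coding genes. Within 2000 bp of the 5′ end of an lncRNA, pseudogene or other noncoding gene, 12 of 61 sites were listed (19.7%, 11.6 to 31.3%). Farther away, 23 of 339 were listed (6.78%, 4.56 to 9.97%). The difference was 12.9 percentage points (95% interval 4.23 to 24.7, odds ratio 3.36, 95% interval 1.42 to 7.56, Fisher's exact test, adjusted p = 0.00809). With lncRNA genes alone, 10 of 35 sites near a 5′ end were listed (28.6%), against 25 of 365 others (odds ratio 5.44, Fisher's exact test, adjusted p = 0.000845). At the other 26 of the 61 sites, near the 5′ end of a pseudogene or other noncoding gene but not of an lncRNA gene, 2 were listed (7.69%, 2.14 to 24.1%), those at ZDHHC20P3 and PMS2P11. This share lay within 1 percentage point of that away from any noncoding 5′ end, and the difference between both kinds of 5′ end was not tested. Restricted to sites with unique sequence on both sides of the cut, the odds ratio for all noncoding 5′ ends was 2.81 and the adjusted p was 0.0577. Without the sites aligned with an Alu-like repeat, described further on, it was 2.84 with an adjusted p of 0.0543, and 3 of the 12 listed sites near a 5′ end were so aligned, at PRORSD1P (identity 90%), ENSG00000290804.1 (88.3%) and ZDHHC20P3 (85%).

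CpG ratio and 5′ ends went together in part. Of the sites near a noncoding 5′ end, 6 of 16 with a ratio of 0.6 or more were listed (37.5%, 18.5 to 61.4%), and 6 of 45 with a lower ratio (13.3%, 6.26 to 26.2%). Of the sites away from such 5′ ends, 2 of 23 with a ratio of 0.6 or more were listed (8.7%, 2.42 to 26.8%) and 21 of 316 with a lower ratio (6.65%, 4.39 to 9.95%). The interval of the first class overlapped those of the second and the third but not that of the last, and these 4 shares were given as a description without a test.

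The density of CpG was also measured over a wider stretch, as a description without a test. The 12 listed sites near a noncoding 5′ end had 3.83 ± 2.53 (SD over sites) CpGs per 100 bp within 500 bp and 2.15 ± 1.99 beyond 1500 bp. The 49 unlisted sites near a noncoding 5′ end had 2.81 ± 2.34 within 500 bp and 1.59 ± 1.22 beyond 1500 bp. Away from noncoding 5′ ends, the 23 listed sites had 1.67 ± 1.42 and the 316 unlisted sites 1.77 ± 1.54 CpGs per 100 bp within 500 bp, and 1.21 ± 0.745 and 1.28 ± 1.13 beyond 1500 bp. The groups overlapped: the listed sites near 5′ ends ranged from 0.5 to 8.5 and the unlisted ones from 0.2 to 10.7 within 500 bp.

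**Figure D3:**
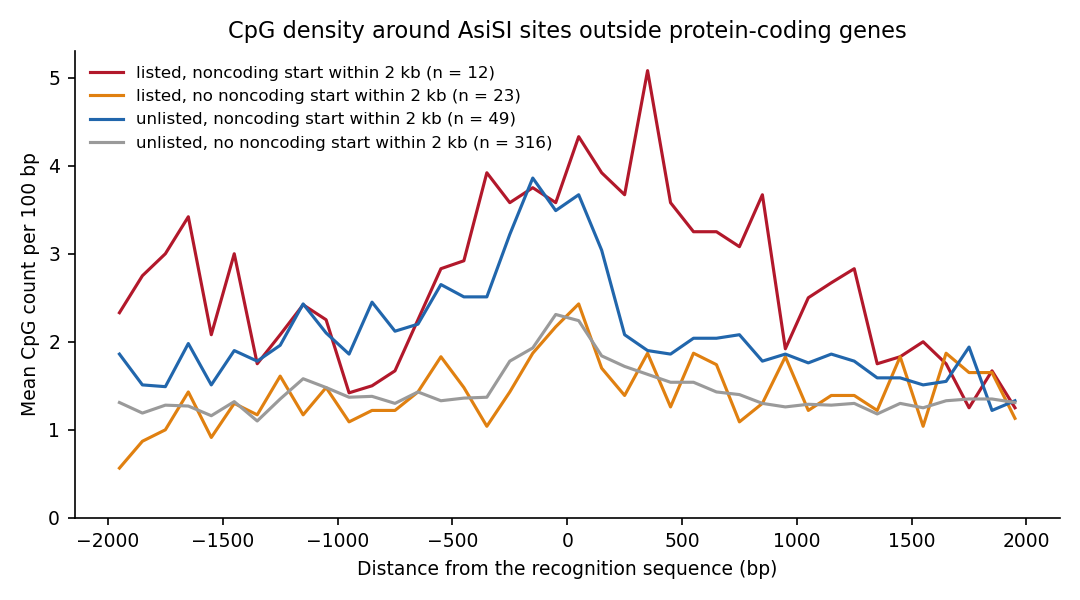
Mean CpG count per 100 bp (y axis) against the distance from the recognition sequence (x axis, bp) for sites outside protein-coding genes, split by listing and by a noncoding 5′ end within 2 kb. Listed sites near a 5′ end (12 sites) averaged 3.83 CpGs per 100 bp within 500 bp, and listed sites without one (23 sites) averaged 1.67, close to the 1.77 of unlisted sites without one; the line of 12 sites is uneven because it rests on few sites.

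Of the 12 listed sites at noncoding 5′ ends, 6 had a CpG ratio of 0.6 or more. The site chr17:80250840-80250847 lay 150 bp upstream of LINC01970 (ENSG00000265692.1) and had a CpG ratio of 0.738. The site chr5:87971906-87971913 lay 74 bp inside MEF2C-AS2 (ENSG00000245864.5), in exons of MEF2C-AS2 and LINC00461, 41021 bp from MEF2C, which encodes a transcription factor of muscle and neurons. Its CpG ratio was 0.746. An unlisted site of the same region, chr5:87975797-87975804, lay 3891 bp from it and 3965 bp inside MEF2C-AS2, so that a listed and an unlisted copy of the recognition sequence stood in one gene.

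The site chr14:29254607-29254614 lay in an exon of LINC01551 and 397 bp inside LINC02282 (ENSG00000257056.3). Its CpG ratio was 0.735. On chromosome 6 a site lay 95 bp inside LINC01012 (chr6:27661900-27661907, ENSG00000281706.5, CpG ratio 0.601), in an exon. A further site, chr6:27145366-27145373, lay 755 bp upstream of the lncRNA gene ENSG00000290009.1 (CpG ratio 0.759). The nearest protein-coding genes of this pair were the histone genes H2BC13, 113350 bp away, and H2AC12, 30025 bp away.

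The site with the highest CpG ratio of the 35 was chr2:55509100-55509107 (0.766), 355 bp upstream of the transcribed pseudogene PRORSD1P (ENSG00000162997.15) and 5871 bp from CCDC88A. It was followed by the sites at ENSG00000290009.1 (0.759) and MEF2C-AS2 (0.746). All 3 lay within 2000 bp of a noncoding 5′ end.

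Listed sites near a noncoding 5′ end were not all CpG-rich. The site chr4:13548242-13548249, in an exon of LINC01096 (ENSG00000246095.2) and 1183 bp inside it, had a ratio of 0.565, and chr6:49917582-49917589, 396 bp inside ENSG00000290804.1, had 0.555. The site chr7:76639766-76639773 lay 1102 bp upstream of PMS2P11 (ENSG00000241350.1), a pseudogene of the mismatch repair gene PMS2, and inside the readthrough gene DTX2P1-UPK3BP1-PMS2P11, with a ratio of 0.336. The site chrX:45366393-45366400 lay between exons of LINC01204 (ENSG00000229563.7), 1760 bp from its 5′ end, with a ratio of 0.236. The site chr11:74938447-74938454 lay between exons of TPBGL-AS1, with a ratio of 0.231. It was 1255 bp downstream of the 5′ end of the short pseudogene ZDHHC20P3 (ENSG00000255460.1), past its 3′ end and so outside it. The last of the 12 lay in an exon of HAS2-AS1, antisense to the hyaluronan synthase gene HAS2, and 72 bp upstream of LINC02855 (ENSG00000254209.2), with a ratio of 0.161.

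Over all kinds of noncoding genes, 16 of the 137 sites inside a noncoding gene body were listed (11.7%, 7.32 to 18.1%). Sites over an exon of such a gene were listed in 6 of 24 cases (25%, 12 to 44.9%) and sites between exons in 10 of 113 (8.85%, 4.88 to 15.5%). By kind, 20 of 143 sites within 2000 bp of an lncRNA gene body were listed (14%) and 4 of 35 near a pseudogene (11.4%), where 1 site can count for both. Near small RNA genes 0 of 6 were listed, which the Wilson interval bounds at 39%. Of the 235 sites more than 2000 bp from every annotated gene of any kind, 15 were listed (6.38%, 3.91 to 10.3%). These shares were not tested.

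The distance to the nearest protein-coding gene did not separate listed from unlisted sites at this number of sites. Of the sites at most 10 kb from a gene 5 of 72 were listed (6.94%), and of those farther away 30 of 328 (9.15%). The difference was -2.2 percentage points (95% interval -7.55 to 6.52, Fisher's exact test, adjusted p = 0.781). The listed share was 10.2% (14 of 137) at 10 to 50 kb, 8.82% (9 of 102) at 50 to 200 kb and 7.87% (7 of 89) beyond 200 kb. The median distance was 31509 bp for listed sites (range 2110 to 1286901 bp) and 45404 bp for unlisted sites (range 2022 to 2019447 bp).

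**Figure D4:**
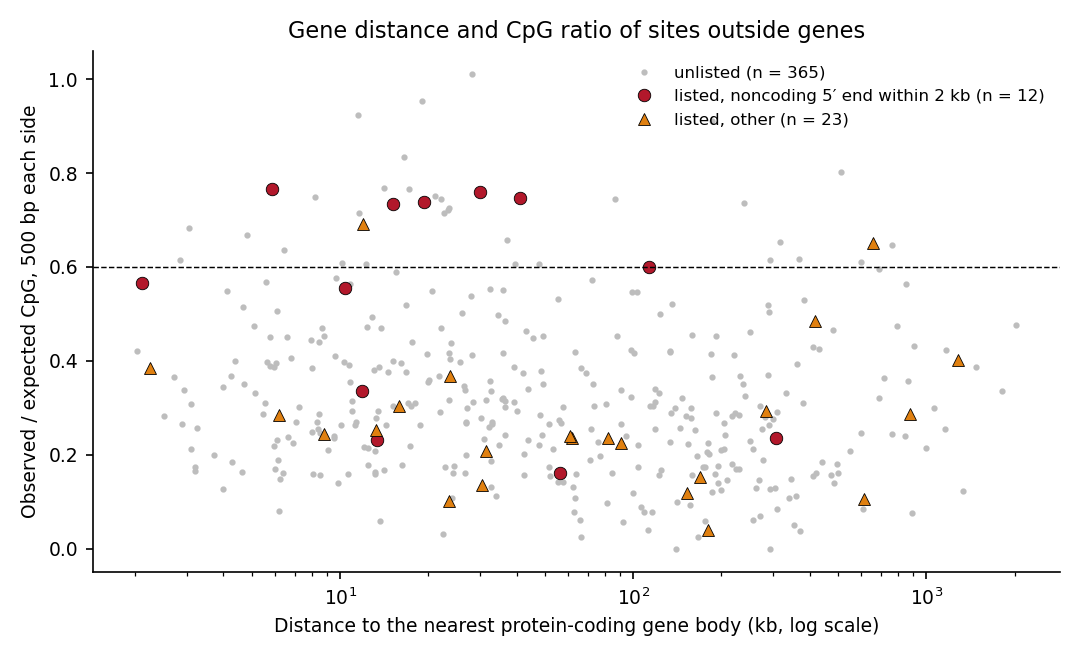
Distance to the nearest protein-coding gene body (x axis, kb, log scale) against the CpG ratio in 500 bp on each side (y axis) of the 400 sites outside genes; the dashed line is the limit of 0.6. Listed sites spanned distances from 2110 to 1286901 bp, and 6 of the 8 listed sites above the line had a noncoding 5′ end within 2 kb (circles).

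The listed sites farthest from protein-coding genes stood far out in intergenic sequence. The site chr6:67704020-67704027 was 1286901 bp from EYS, a gene of photoreceptors, with a CpG ratio of 0.402. Its flanks were aligned with the Alu-like repeat (identity 71.7%). The site chr13:105238551-105238558 was 879658 bp from DAOA with a ratio of 0.287, and its nearest noncoding 5′ end, that of the pseudogene RPL7P45, was 228127 bp away. The site chr18:76079794-76079801 was 660017 bp from SALL3, which encodes a zinc-finger transcription factor, and had a ratio of 0.651. The latter and chr1:181073960-181073967, 11924 bp from the stress response gene IER5 with a ratio of 0.692, were the 2 listed sites with a ratio of 0.6 or more and no noncoding 5′ end within 2000 bp.

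The 3 listed sites with the lowest CpG ratios had 2 to 4 CpGs in 1000 bp outside the recognition sequence. The site chr14:19198133-19198140 had the lowest ratio of the 35 (0.039, with 2 CpGs), and of the 31-mers within 100 bp of it only 8.99% occurred once in the genome. The site chr18:28874568-28874575, 23548 bp from the desmoglein gene DSG1, had a ratio of 0.102 with 4 CpGs. The site chr11:134896107-134896114 had a ratio of 0.106 with 3 CpGs and lay 110402 bp from the end of the chromosome. For both of the latter sites every 31-mer within 100 bp was unique in the genome.

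At the distance limit the members just inside and just outside were close together. The listed site nearest beyond the limit was that in LINC01096, 2110 bp from NKX3-2, which encodes a homeobox factor of the skeleton, and the next was chr20:37360268-37360275, 2253 bp from SLC32A1, the vesicular transporter of GABA. The unlisted site nearest beyond it lay 2022 bp from ROCK1 (chr18:18693796-18693803). Within the limit, the nearest listed site was 1518 bp from HEBP1 (chr12:13154717-13154724) and the nearest unlisted site was 1906 bp from TMEM184B (chr22:38670922-38670929).

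A high CpG ratio was also found at unlisted sites, 3 of which are named as the highest. The site chr7:152162008-152162015 had a ratio of 1.01 and lay in an exon of LINC01003, 28279 bp from KMT2C, which encodes a histone methyltransferase. The site chr10:23462157-23462164 (ratio 0.954) was 19077 bp from PTF1A, a transcription factor gene of the pancreas, and chr2:71116189-71116196 (ratio 0.924) lay between exons of LINC01143, 11510 bp from the homeobox gene VAX2. All 3 had unique sequence on both sides of the cut, and those in LINC01003 and LINC01143 lay 1137 and 1188 bp inside these genes, also within 2000 bp of a noncoding 5′ end. Of the 39 sites outside genes with a ratio of 0.6 or more, 31 were unlisted.

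A large part of the sites outside genes shared one flanking sequence, which was found after the data had been examined. Grouping the 1211 windows by shared 20-mers gave one group of 429 sites, the next largest having 12, and its majority sequence is recognisable as a stretch of the Alu element. No repeat annotation was used. Over the 60 bases next to the recognition sequence, identity to this consensus fell into 2 ranges with 6 of the 400 sites from 45% to under 60%, and 145 of the 400 sites outside genes (36.2%) had an identity of 60% or more and are called aligned with the repeat. In gene bodies 185 of 560 sites (33%) were so aligned, and at promoters 23 of 251 (9.16%). Of the 10 aligned listed sites, identity ranged from 61.7 to 91.7% with a median of 82.5%, and of the 135 aligned unlisted sites from 60 to 96.7% with a median of 85%.

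Of the 145 aligned sites, 10 were listed (6.9%, 3.79 to 12.2%), against 25 of the 255 others (9.8%, 6.73 to 14.1%). The difference was -2.91 percentage points (95% interval -8.19 to 3.25, odds ratio 0.681, Fisher's exact test, unadjusted p = 0.362), which was not detectable at this number of sites. Among sites with unique sequence on both sides of the cut the direction turned. There 3 of 24 aligned sites were listed (12.5%), against 22 of 199 others (11.1%, odds ratio 1.15, Fisher's exact test, unadjusted p = 0.738). In gene bodies 5 of 185 aligned sites were listed (2.7%, 1.16 to 6.17%) and 46 of 375 others (12.3%), and at promoters 4 of 23 aligned (17.4%) and 124 of 228 others (54.4%). Whether the aligned sites differed between these regions was not tested.

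**Figure D5:**
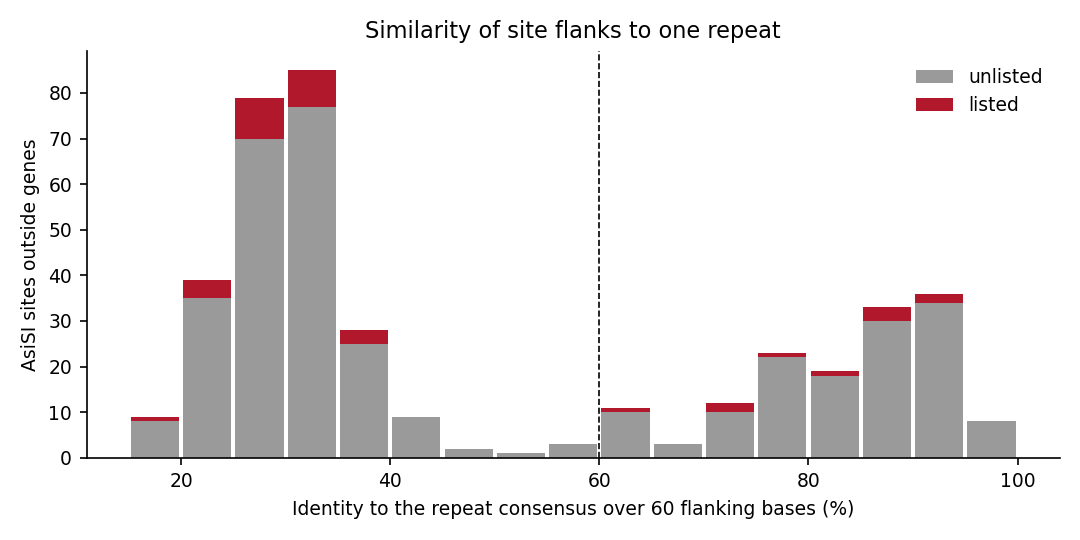
Number of AsiSI sites outside protein-coding genes (y axis) by identity of the 60 flanking bases to the repeat consensus (x axis, %, bins of 5), unlisted sites in grey and listed sites stacked in red. The dashed line is the limit of 60%, above which 10 of 145 sites were listed; 25 of 255 were listed below it.

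The authors kept uniquely mapped reads, and the uniqueness of the sequence at each break end was therefore compared with listing. Each end was represented by the 31-mer that runs outwards from the cut. Both were unique in the genome at 223 sites, of which 25 were listed (11.2%), and 1 or both were repeated at 177, of which 10 were listed (5.65%). The difference was 5.56 percentage points (95% interval -0.0905 to 11, odds ratio 2.11, Fisher's exact test, adjusted p = 0.0786). Where every 31-mer within 100 bp was unique, 22 of 160 sites were listed, against 13 of the 240 others (odds ratio 2.78, Fisher's exact test, adjusted p = 0.0121).

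Of the 10 listed sites with a repeated end, 7 had a unique 31-mer on the other side. Among them the site upstream of PRORSD1P had 1 copy on the left and 4710 on the right, and chrX:134058100-134058107, 8813 bp from MOSPD1, had 3519 and 1. The others of the 7 had at most 114 copies on the repeated side: chr1:88233220-88233227 in PKN2-AS1 had 1 and 114, the site in ENSG00000290804.1 had 40 and 1, chr19:46768783-46768790 had 1 and 7, chr20:5033037-5033044 had 4 and 1, and chr18:48365046-48365053 had 2 and 1. The remaining 3 listed sites had no unique end. These were chr5:137917555-137917562, 6191 bp from the mitochondrial chaperone gene HSPA9, with 3976 and 8 copies, and the sites chr14:19198133-19198140 and chr7:76639766-76639773 with 2 copies on each side. Among unlisted sites 60 of 365 (16.4%) had no unique end, against 3 of 35 listed sites (8.57%).

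The bases next to the recognition sequence can add a CpG on either side, where C stands before or G after it. Without an added CpG 23 of 255 sites were listed (9.02%), with 1 it was 7 of 105 (6.67%), and with 2 it was 5 of 40 (12.5%, 5.46 to 26.1%). The Wilson intervals of these shares overlapped.

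Motifs were searched for in 100 bp on each side on both strands and are given as a description. The GC box GGGCGG occurred at 3 of 35 listed (8.57%) and 22 of 365 unlisted sites outside genes (6.03%), against 45.3% of listed promoter sites and 16.9% of all 1211 sites. The CCAAT box CCAAT was found at 7 listed (20%) and 68 unlisted sites (18.6%), and at 16.6% of all sites. The AP-1 motif TGANTCA was found at 5 listed (14.3%) and 17 unlisted sites (4.66%), and at 4.29% of all sites. The listed sites with it were those in LINC01096, LINC01204 and the readthrough gene with PMS2P11, chr2:43358338-43358345 in an exon of the lncRNA gene ENSG00000286796, and the site near HSPA9. The ETS core CCGGAAG was found at 1 listed and 4 unlisted sites, the NRF1 core GCATGCGC at 1 and 7, the CRE TGACGTCA at none of either, and the CTCF core motif at 1 listed site, near SLC32A1, and no unlisted site. Of all sites these 4 motifs were held by 2.48%, 1.82%, 0.0826% and 0.33%, in this order.

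The 35 listed sites were spread singly, and the closest listed neighbour of any of them was 94215 bp away, beyond 10 kb. Predicted sites were themselves rarely close together. Of the 400 sites outside genes, 3 had a further predicted site within 10 kb, and 1 of these 3 was listed. The median distance to the nearest predicted site was 763955 bp for listed and 736529 bp for unlisted sites. Whether listed sites were spaced differently from all sites was not tested. The 35 listed sites fell on 15 chromosomes. Chromosomes 6 and 8 had 5 each, of 24 and 21 predicted sites outside genes. On 8 chromosomes none of 123 sites outside genes was listed, among them chromosome 3 with 25 sites and chromosome 10 with 24. Each of the 8 had listed sites of the other classes, 13 on chromosome 3 and 11 on chromosome 10. The listed sites on chromosome 8 all had unique sequence at both ends and CpG ratios from 0.119 to 0.239.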

How the data were processed

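BLISS was carried out on 1 induced and 1 uninduced library; the other 23 of the 25 samples of the series were not used here. Duplicate reads were discarded with SAMtools after alignment to GRCh37/hg19, for which the authors used BWA and tolerated no more than 1 mismatch. Reads that mapped to 1 place only and carried the barcode of the linker were counted in windows of 100 bp on each side of predicted AsiSI sites, and the normalized counts of both conditions were set in a ratio to rank the sites. The file the authors deposited holds only coordinates and names; neither the rank limit nor the meaning of its line order is given in the sources used here.

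From there, the recognition sequence was searched for in GRCh37, and a site was listed if its 1-based first base was in the list, which held for every line of it. Genes came from GENCODE release 44 lifted to GRCh37, with TSSs at the 5′ ends of gene records. CpG ratios leave out the recognition sequence. The 31-mers start at the blunted ends, that is, they end at base 3 on the left and start at base 6 on the right, and were counted on both strands. Shares were compared with Fisher's exact test (two-sided) with 95% Wilson, Newcombe and conditional intervals, with a threshold of 0.05 after adjustment. The members, comparisons and lists were chosen with earlier results of these data known. Named sites are the listed sites within 2000 bp of a noncoding 5′ end, the 3 with the highest and lowest CpG ratio, the 3 farthest from genes, those without unique 31-mers on both sides, those at the distance limit and the 3 unlisted sites with the highest CpG ratio; the others named (IER5, SLC32A1, MEF2C-AS2 unlisted neighbour, and sites named for a motif) were chosen after their values were seen, as was the repeat. Alternatives were other limits, windows, gene sets and subsets of sites. The functions for the tests were checked on lists simulated with known odds ratios. No column of values per sample was left out (0 columns). Variants of the cell line's genome were not examined, and 1 gene and the sequence of the repeat are not reported here. Tests were run in scipy 1.17.1 and statsmodels 0.14.6 under Python 3.11.15; k-mers were counted with numba 0.67.0, tables handled in pandas 2.3.3 and numpy 2.4.6, and plots drawn in matplotlib 3.10.9.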

Additional observations from a re-analysis of the deposited data

How the results depend on the processing

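The comparison with promoters kept its direction and call under all 7 alternatives (odds ratios 0.0866 to 0.151), and the distance comparison gave no call under its 4 alternatives (0.484 to 1.09). Against gene bodies 7 of 8 alternatives gave no call. Counting every site outside a gene body as outside, with no minimum distance, reversed the direction (odds ratio 1.56, Fisher's exact test, adjusted p = 0.0432). Sites outside a gene body but within 2000 bp of it then moved into the class, from both other classes. Of the sites outside, 65 of 475 were then listed, while promoters went from 128 of 251 to 99 of 193 and gene bodies from 51 of 560 to 50 of 543. The comparison by noncoding 5′ end kept its call under 8 of 10 alternatives and lost it, with adjusted p = 0.0577 and 0.0543 (Fisher's exact test), among sites with unique ends (odds ratio 2.81) and without the aligned sites (2.84). The comparison by CpG ratio was called under 4 of 9 alternatives. It was lost with windows of 100 bp (odds ratio 1.1) and 250 bp (2.22), with limits of 0.5 (2.25) and 0.75 (2.4), and among sites with unique ends (2.82), and the adjusted p over its alternatives ranged from 0.0089 to 0.909. The cause of these losses was not tested, but the subset of sites with unique ends and that without the aligned sites hold fewer sites (223 and 255 outside genes). The comparison by unique sequence was called where every 31-mer within 100 bp had to be unique (odds ratio 2.78) and not under its other 2 alternatives. The repeat gave no call under any of 6 alternatives (0.512 to 1.15), and its direction turned only among sites with unique ends (1.15). The alternatives on the repeat and on all transcript starts of noncoding genes were added after the data had been seen. The number of listed sites, 35, limits every comparison within the sites outside genes. No paired analysis was possible because each condition has 1 library.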
